A study of Ovis aries with 8 samples.

Results

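The genes described here are those of the proteasome, the protease that degrades ubiquitin-tagged proteins. They are all gene symbols of the deposited count table that begin with PSMA, PSMB, PSMC, PSMD, PSME, PSMF or PSMG followed by a digit, which are 44 of the 11247 genes in the table. Expression was measured by sequencing of poly-A RNA from longissimus thoracis, a loin muscle of the back, of 8 castrated Dorper × Santa Inês lambs. The SM20 group was 4 lambs fed a diet with 20% soybean molasses, a sugar-rich residue of soy protein processing, and the CON group was 4 lambs fed the control diet. They were drawn at random from a trial of 20 lambs with 10 per diet, so each library is a separate animal, and the labels give no genotype beyond the cross, no age and no further treatment.

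The 20S core is a barrel of stacked rings. The alpha rings at the ends gate the entry, and the beta rings inside carry the proteolytic sites. The 19S regulatory particle caps the core: its ATPase subunits unfold substrates and open the gate, and its non-ATPase subunits recognise ubiquitin chains and hold the lid together. Other caps (the PSME activators) can replace the 19S particle, and dedicated chaperones that are absent from the finished complex assemble the rings. In skeletal muscle this system degrades most of the soluble and myofibrillar protein, and its subunit genes are known to rise together during wasting.

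Of the 44 genes, 42 passed the expression filter and were tested, and 41 of these encode proteasome subunits, regulators or assembly factors. *PSMA8*, the testis-type alpha subunit, was left out by the filter, with 0, 1, 0 and 0 reads in the SM20 lambs and 3, 0, 0 and 3 in the CON lambs. *PSMC3IP*, which matches by symbol but encodes a recombination cofactor, was also left out, with 1, 2, 2 and 3 reads in the SM20 lambs and 1, 3, 10 and 9 in the CON lambs. The symbols *PSMA2*, *PSMB6*, *PSMB9*, *PSMB11*, *PSMD10* and *PSMD14* do not occur in the deposited count table, so the sums and medians below do not include them. All levels are read counts relative to library size, scaled by TMM factors (CPM), and because transcript lengths were not used, a level is compared between lambs and never between genes.

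Library totals over the listed genes ranged from 8675527 to 11210065 reads. A set of 10 skeletal muscle markers, among them *ACTA1*, *CKM*, *DES*, *NEB* and *TNNC2*, summed to between 132759 and 143199 CPM in the SM20 lambs and between 113600 and 179322 CPM in the CON lambs. Of the 10, 4 had a log2 fold change above 0 and 6 below. *NEB* was higher in SM20 (18785 to 21460 CPM, against 11333 to 14707 CPM in CON). *TNNC2* was lower (8427 to 10356 CPM, against 10560 to 14552 CPM in CON). These 2 genes without overlap were 20% of the 10, against 12.2% of all genes, and none of the 10 passed the adjusted threshold of edgeR. Sums of the other cell type markers overlapped between the diets, with 451 to 655 CPM in SM20 and 523 to 771 CPM in CON for 10 endothelial genes, 58.8 to 89.2 CPM in SM20 and 30.9 to 109 CPM in CON for 6 adipocyte genes, and 1237 to 2683 CPM in SM20 and 1167 to 2122 CPM in CON for 7 fibroblast genes. Of the single endothelial genes, 8 of the 10 had a log2 fold change below 0, with a median of -0.29, and 5 (50%) had an unadjusted p under 0.05, against 18.3% of all genes, of which 4 were lower and 1 higher. None of the 10 passed the adjusted threshold of edgeR. Slow-fibre genes were lower on average in SM20, with a median log2 fold change of -0.57 over 9 genes, all 9 below 0. Their sum ran from 11092 to 15854 CPM in the SM20 lambs and from 10724 to 25842 CPM in the CON lambs, so the diets overlapped, and the part of fibre type and of the other cell types in the results below was not tested. In a piece of muscle, fewer cells of a type and less RNA per cell cannot be told apart.

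Proteasome transcripts as a whole differed little between the diets. The 41 tested proteasome genes summed to 3645, 3928, 3625 and 3988 CPM in the SM20 lambs and to 3862, 4096, 3987 and 3420 CPM in the CON lambs. The lambs of the diets were interleaved, and the lowest sum was that of CON lamb 4. The means were 3797 ± 189 CPM in SM20 and 3841 ± 297 CPM in CON (SD, n = 4 each).

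No member passed an adjusted p of 0.05 in the quasi-likelihood F-test of edgeR, in which 0.0511% of the 9779 genes tested did (4 higher and 1 lower in SM20). At an unadjusted p under 0.05 there were 6 of 42 members, which is 14.3%, against 18.3% of all genes. There were 2 higher in SM20 (*PSME4* and *PSMD12*), where 9.84% of all genes stood, and 4 lower (*PSMB4*, *PSMF1*, *PSMG3* and *PSMG4*), where 8.45% stood. DESeq2 called 1 member, *PSME4*, against 5.88% of the genes to which it gave an adjusted p. In 4 members, or 9.52%, the 4 SM20 lambs and the 4 CON lambs did not overlap, against 12.2% of all genes. Here 1 member was higher in SM20, as were 6.54% of all genes, and 3 were lower, as were 5.67%.

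The members differed less between the diets than the median gene and varied less between lambs, which describes medians and was not tested. Their median absolute log2 fold change was 0.15, against 0.23 over all genes, and the median standard error was 0.13, against 0.20. The median coefficient of variation within a diet was 10.0% in SM20 and 10.6% in CON for the members, against 18.0% in SM20 and 18.4% in CON over all genes. These comparisons were not matched for expression level, and all genes include those near the filter's minimum count of 10. Whether the smaller spread is particular to proteasome genes was therefore not tested. The signed median log2 fold change, SM20 over CON, was -0.09 for the members and 0.01 for all genes (for the members -0.0463 without CON lamb 1, -0.0527 without CON lamb 3, -0.0474 without SM20 lamb 3 and -0.0320 with scaling by library size alone), with 59.5% of the members and 49.3% of all genes below 0.

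**Figure D1:**
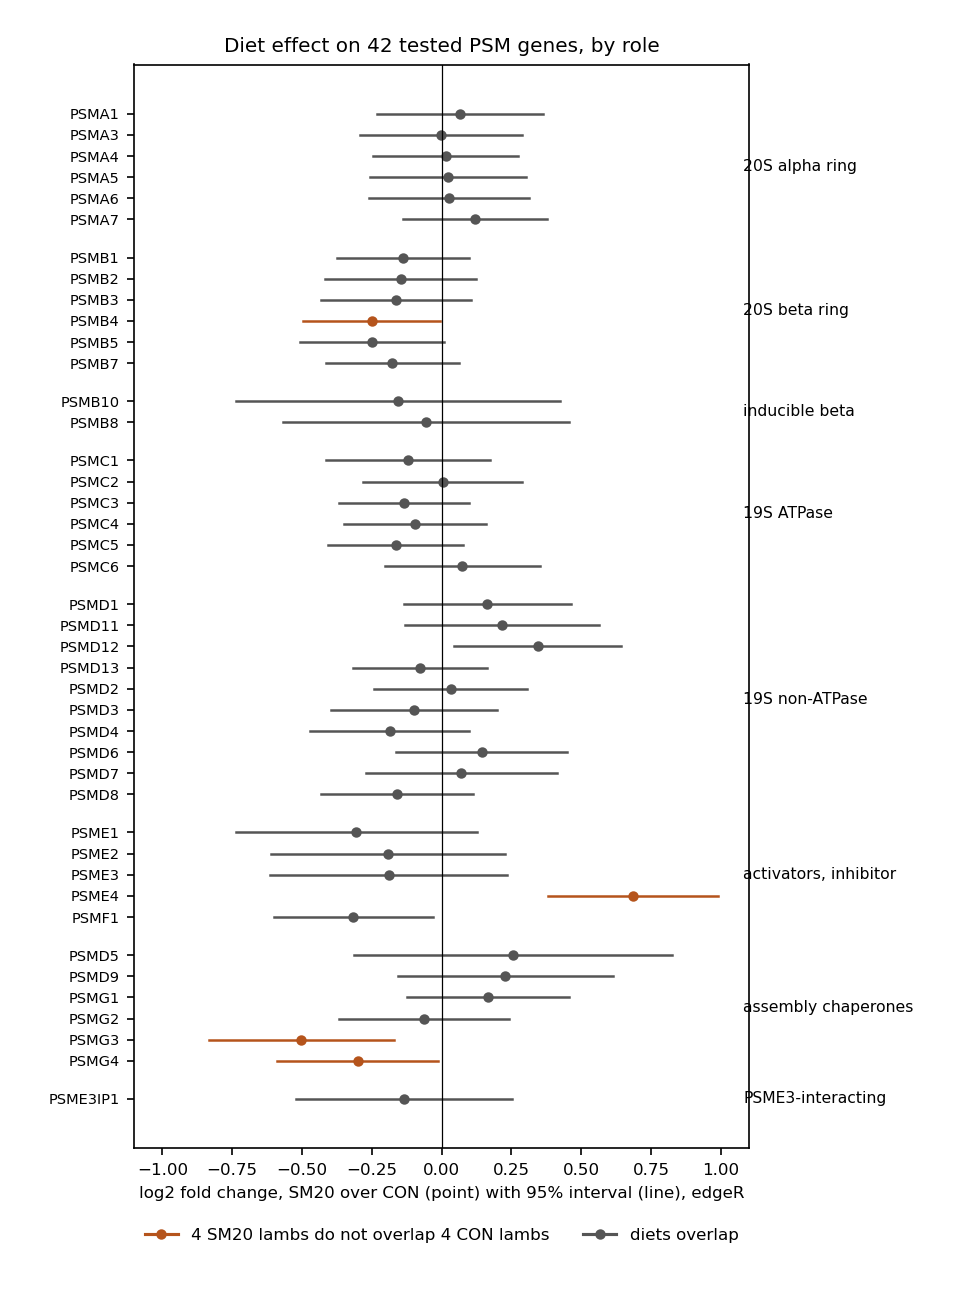
Log2 fold change of SM20 over CON (horizontal axis) for each of the 42 tested genes, grouped by role, with points for the estimates and lines for the 95% intervals from edgeR. *PSME4* stands at 0.68, *PSMG3* at -0.50, and the 6 beta-ring genes all lie left of 0 while 5 of 6 alpha-ring genes lie just right of it (2 of 6 under upper-quartile factors).

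The alpha ring, which forms the outer rings and the gate of the core, was close to equal on both diets. Of its 6 tested genes, 5 had a log2 fold change above 0 and 1 below, with a median of 0.02 and a range of -0.00 to 0.12 (2 above and 4 below, with a median of -0.01, under upper-quartile factors). *PSMA7*, the subunit with the smallest p of the ring, had 99.4, 109, 112 and 95.6 CPM in the SM20 lambs and 90.6, 109.8, 92.6 and 90.2 CPM in the CON lambs. In CON, 3 lambs lay below every SM20 lamb and CON lamb 2 lay among them, so the diets overlapped. The log2 fold change was 0.12 ± 0.12 (SE, n = 4 each; edgeR adjusted p = 0.629).

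*PSMA1* had 82.8, 94.7, 86.9 and 105 CPM in the SM20 lambs and 75.2, 102, 94.3 and 81.3 CPM in the CON lambs, a log2 fold change of 0.07 ± 0.13 (edgeR adjusted p = 0.837). *PSMA6* had 142, 163, 148 and 188 CPM in the SM20 lambs and 152, 168, 171 and 138 CPM in the CON lambs, a log2 fold change of 0.03 ± 0.13 (edgeR adjusted p = 0.941). Both genes were highest in one SM20 lamb, lamb 4, and the remaining lambs were mixed. SM20 lamb 4 was the highest of its diet for 5 of the 6 alpha genes, and without it the ring's median was -0.06. Without CON lamb 4, the lowest CON lamb for 5 of the 6, the median was -0.0282, so the sign of this small value depends on either lamb. *PSMA3*, *PSMA4* and *PSMA5* had log2 fold changes of -0.00, 0.01 and 0.02.

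The constitutive beta ring carries the proteolytic sites, and all 6 of its tested genes were on average lower in SM20, with a median log2 fold change of -0.17 and a range of -0.25 to -0.14. None passed the adjusted threshold in edgeR or DESeq2, and 1 of the 6, *PSMB4*, had an unadjusted p under 0.05. The 6 genes together summed to 550.0, 531, 516 and 526 CPM in the SM20 lambs and to 631, 623, 625 and 554 CPM in the CON lambs. Every SM20 lamb lay below every CON lamb, by a narrow margin between SM20 lamb 1 and CON lamb 4. The means were 531 ± 14.4 CPM in SM20 and 608 ± 36.2 CPM in CON (SD, n = 4 each), a ratio of 0.872. With scaling by library size alone the sums overlapped, at 526 to 569 CPM in SM20 and 558 to 688 CPM in CON, and the ratio was 0.905. The 6 signs stayed below 0 under each of the 13 other settings and left-out lambs tried.

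*PSMB4*, a structural beta subunit without a proteolytic site of its own, had 142, 118, 137 and 133 CPM in the SM20 lambs and 166, 155, 163 and 146 CPM in the CON lambs. The diets did not overlap, with a log2 fold change of -0.25 ± 0.11 (SE, n = 4 each; edgeR adjusted p = 0.264). *PSMB5*, which carries the chymotrypsin-like site and is the usual target of proteasome inhibitor drugs, had 87.9, 90.5, 81.7 and 89.8 CPM in the SM20 lambs and 107, 114, 107 and 88.2 CPM in the CON lambs. Here 3 CON lambs stood above all SM20 lambs, while CON lamb 4 lay inside the SM20 range. Its log2 fold change was likewise -0.25 ± 0.12 (edgeR adjusted p = 0.287).

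*PSMB7*, which carries the trypsin-like site, ranged from 95.9 to 106 CPM in SM20 and from 105 to 123 CPM in CON, with a log2 fold change of -0.18 ± 0.11. *PSMB1*, *PSMB2* and *PSMB3*, which like *PSMB4* are not proteolytic, had log2 fold changes of -0.14, -0.15 and -0.16. The alpha-ring sum divided by the beta-ring sum, a within-lamb quantity that no scaling affects, was 0.911, 1.07, 1.05 and 1.18 in the SM20 lambs and 0.821, 0.955, 0.895 and 0.886 in the CON lambs. SM20 lamb 1 lay below CON lamb 2, so the ratios overlapped. They averaged 1.05 ± 0.11 in SM20 and 0.889 ± 0.0547 in CON (SD, n = 4 each).

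**Figure D2:**
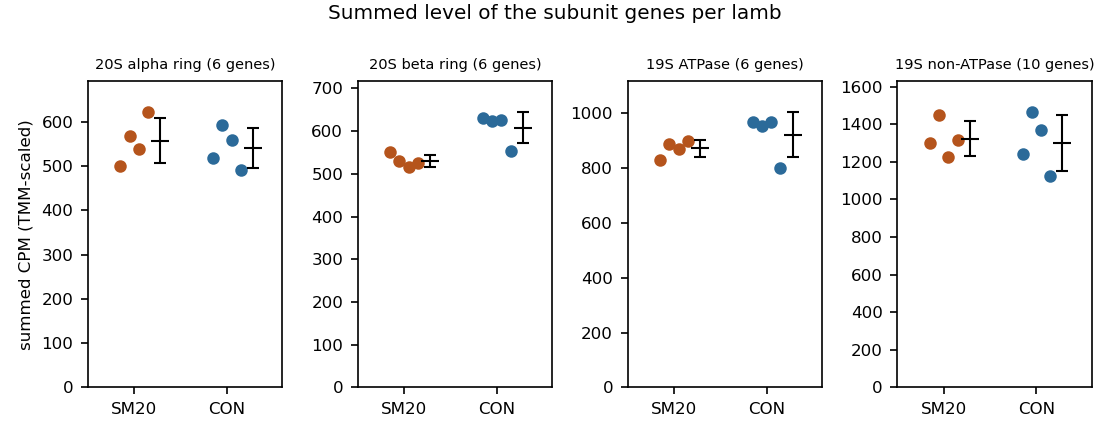
Summed CPM per lamb (vertical axis, from 0) of the 20S alpha ring, the 20S beta ring, the 19S ATPases and the 19S non-ATPase subunits, with SM20 left of CON and bars for the mean ± SD of 4 lambs. The beta-ring sums reach 550.0 CPM at most in SM20 and start at 554 CPM in CON, while the diets overlap in the other panels.

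*PSMB8* and *PSMB10* encode the interferon-inducible subunits that take the places of *PSMB5* and *PSMB7* in the immunoproteasome, a form that favours peptides for MHC class I. *PSMB8* had 20.1, 11.99, 13.4 and 21.5 CPM in the SM20 lambs and 21.6, 14.1, 13.6 and 20.2 CPM in the CON lambs. *PSMB10* had 8.07, 7.04, 5.66 and 10.2 CPM in the SM20 lambs and 13.1, 6.20, 7.68 and 7.72 CPM in the CON lambs. For *PSMB8*, lambs 1 and 4 of each diet were high and the others low. For *PSMB10*, CON lamb 1 was high and the other CON lambs low, while the SM20 lambs were spread over their range. In both genes the ranges of the diets overlapped. The log2 fold changes were -0.05 ± 0.23 and -0.16 ± 0.26 (edgeR adjusted p = 0.930 and 0.798), without CON lamb 1 they were 0.07 and 0.11, and that of *PSMB8* was 0.01 with scaling by library size alone.

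The ATPases of the 19S particle form the ring that sits on the core. Of the 6 genes, all tested, 2 had a log2 fold change above 0 and 4 below, with a median of -0.11 and a range of -0.16 to 0.07. Their sums were 831, 888, 870 and 901 CPM in the SM20 lambs and 968, 956, 967 and 800.0 CPM in the CON lambs. Of the CON lambs, 3 exceeded all SM20 lambs, and CON lamb 4 was below all of them. That lamb was the lowest CON lamb for 6 of the 6 genes, and without it the median was -0.17. Without CON lamb 1 the median was -0.0551, and with scaling by library size alone it was -0.0516.

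*PSMC5* had 155, 168, 173 and 167 CPM in the SM20 lambs and 184, 195, 197 and 167 CPM in the CON lambs, a log2 fold change of -0.16 ± 0.11 (SE, n = 4 each; edgeR adjusted p = 0.454). *PSMC3* had 179.8, 179.5, 167 and 172 CPM in the SM20 lambs and 201, 198, 191 and 177 CPM in the CON lambs, a log2 fold change of -0.14 ± 0.11 (edgeR adjusted p = 0.526). In both genes only CON lamb 4 lay inside the range of the SM20 lambs. *PSMC2* had 187, 217, 206 and 239 CPM in the SM20 lambs and 226, 218, 226 and 177 CPM in the CON lambs, with a log2 fold change of 0.00 ± 0.13 (edgeR adjusted p = 0.992). Its lowest and highest lambs overall were CON lamb 4 and SM20 lamb 4, and the rest were mixed. *PSMC1*, *PSMC4* and *PSMC6* had log2 fold changes of -0.12, -0.09 and 0.07.

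The non-ATPase subunits of the 19S particle include the ubiquitin receptors and the lid. Of the 10 tested genes, 6 had a log2 fold change above 0 and 4 below, with a median of 0.05 and a range of -0.19 to 0.34. The median ran from -0.01 without CON lamb 4 to 0.14 without CON lamb 2. Summed levels were 1299, 1450, 1228 and 1318 CPM in the SM20 lambs and 1241, 1463, 1369 and 1125 CPM in the CON lambs, with the diets interleaved.

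*PSMD12*, a lid subunit, had 78.7, 87.7, 82.8 and 89.4 CPM in the SM20 lambs and 57.5, 81.0, 69.98 and 58.1 CPM in the CON lambs. All SM20 lambs were high, and CON lamb 2 reached into their range while the other CON lambs did not. The log2 fold change was 0.34 ± 0.14, with a 95% interval of 0.05 to 0.64 (SE, n = 4 each; unadjusted p = 0.0278, edgeR adjusted p = 0.215). With scaling by library size alone the lambs of the diets did not overlap in *PSMD12*. That held for 2 of the 42 members, or 4.76%, against 10.6% of all genes. *PSMD11*, its neighbour in the lid, ranged from 80.3 to 99.2 CPM in SM20 and from 62.7 to 101 CPM in CON, with a log2 fold change of 0.22 ± 0.16.

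*PSMD4*, a ubiquitin receptor, had 177, 203, 155 and 166 CPM in the SM20 lambs and 195, 226, 199.9 and 175 CPM in the CON lambs, a log2 fold change of -0.19 ± 0.13 (SE, n = 4 each; edgeR adjusted p = 0.476). *PSMD2*, the scaffold that binds shuttle factors, had 273, 293, 244 and 277 CPM in the SM20 lambs and 265, 291, 283 and 224 CPM in the CON lambs, a log2 fold change of 0.03 ± 0.12 (edgeR adjusted p = 0.921). The diets overlapped in both genes, and SM20 lamb 2 was the highest SM20 lamb in each. The other 6 genes, *PSMD1*, *PSMD3*, *PSMD6*, *PSMD7*, *PSMD8* and *PSMD13*, had log2 fold changes between -0.16 and 0.16. Over both parts of the 19S particle, the 95% intervals of the single genes ran from -0.47 to 0.64, and over both rings of the core from -0.51 to 0.38.

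The smallest p of any member was that of *PSME4*, which encodes PA200, the large single-chain activator that caps the core in place of the 19S particle. In mammalian cells PA200 is known for the degradation of acetylated core histones without ubiquitin. *PSME4* had 182, 201, 148 and 220.0 CPM in the SM20 lambs and 111, 128, 116 and 112 CPM in the CON lambs. All 4 SM20 lambs were above all 4 CON lambs, with SM20 lamb 3 the closest, and the CON lambs lay close together. The means were 188 ± 30.6 CPM in SM20 and 117 ± 7.83 CPM in CON (SD, n = 4 each), a fitted ratio of 1.61.

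The log2 fold change of *PSME4* was 0.68 ± 0.14, with a 95% interval of 0.38 to 0.99. It ranked 44 among the 9779 genes by p (unadjusted p = 4.26e-04). The edgeR adjusted p was 0.0837, which missed the threshold, and the DESeq2 adjusted p was 0.00129, which passed it. Over all alternatives the adjusted p ran from 0.00129 to 0.202. At an edgeR adjusted p under 0.10 there were 1.32% of all genes. The log2 fold change stayed between 0.60 and 0.78 under all other settings and left-out lambs tried. Relative to the 12 genes of the 20S core, *PSME4* stood at 0.174, 0.183, 0.141 and 0.192 of their summed CPM in the SM20 lambs and at 0.0970, 0.105, 0.0979 and 0.107 in the CON lambs. This within-lamb ratio did not overlap between the diets. It is no separate evidence, because it uses the same *PSME4* values and the core sums were similar (1051 to 1149 CPM in SM20, 1045 to 1217 CPM in CON).

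The other 4 genes of this class were on average lower in SM20. *PSMF1* encodes PI31, named as an inhibitor of the core in the test tube and known in flies as an adaptor for proteasome transport. It had 50.4, 51.1, 51.4 and 57.1 CPM in the SM20 lambs and 76.5, 54.2, 67.3 and 63.4 CPM in the CON lambs. Of the SM20 lambs, 3 lay together below all CON lambs, and SM20 lamb 4 was above CON lamb 2. This gave a log2 fold change of -0.32 ± 0.13 (SE, n = 4 each; unadjusted p = 0.0327, edgeR adjusted p = 0.232).

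*PSME1* and *PSME2* encode the subunits of the interferon-inducible activator PA28, and their values are given here although the rule for named genes did not choose them. *PSME1* had 34.9, 34.6, 41.3 and 60.7 CPM in the SM20 lambs and 66.6, 47.3, 50.1 and 48.0 CPM in the CON lambs, a log2 fold change of -0.31 ± 0.20 (edgeR adjusted p = 0.433). *PSME2* had 21.5, 22.9, 21.3 and 34.5 CPM in the SM20 lambs and 34.9, 30.2, 25.3 and 24.0 CPM in the CON lambs, a log2 fold change of -0.19 ± 0.19 (edgeR adjusted p = 0.632). In each gene 3 SM20 lambs lay below every CON lamb and SM20 lamb 4 was the exception. *PSME3*, the nuclear relative of the pair, ranged from 6.76 to 11.99 CPM in SM20 and from 9.88 to 11.04 CPM in CON, with a log2 fold change of -0.19 ± 0.19. *PSME3IP1*, whose product binds the *PSME3* activator, ranged from 12.6 to 15.1 CPM in SM20 and from 12.1 to 18.2 CPM in CON, with a log2 fold change of -0.13 ± 0.18.

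**Figure D3:**
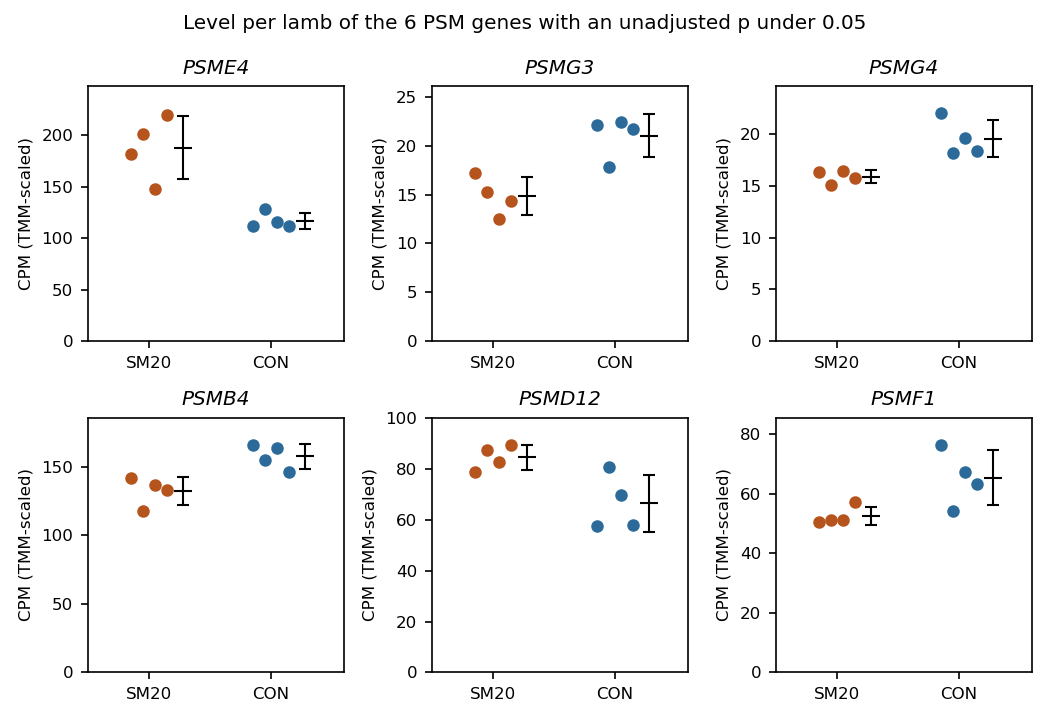
CPM per lamb (vertical axis, from 0) of the 6 genes with an unadjusted p under 0.05, with SM20 left of CON, points for lambs and bars for the mean ± SD of 4 lambs. *PSME4*, *PSMG3*, *PSMG4* and *PSMB4* show no overlap of the diets, whereas *PSMD12* and *PSMF1* each overlap through CON lamb 2, and *PSME4* averages 188 CPM in SM20 and 117 CPM in CON.

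Among the assembly chaperones, *PSMG3* and *PSMG4* were lower in every SM20 lamb than in any CON lamb. Their products form a heterodimer that helps to build the alpha ring, as do those of *PSMG1* and *PSMG2*. *PSMG3* had 17.3, 15.3, 12.6 and 14.3 CPM in the SM20 lambs and 22.2, 17.8, 22.5 and 21.8 CPM in the CON lambs. *PSMG4* had 16.3, 15.1, 16.4 and 15.8 CPM in the SM20 lambs and 22.1, 18.2, 19.7 and 18.4 CPM in the CON lambs. The SM20 lambs were all low in both genes, and CON lamb 2 was the CON lamb nearest to them. The log2 fold changes were -0.50 ± 0.15 for *PSMG3* (unadjusted p = 0.00653, edgeR adjusted p = 0.134, DESeq2 adjusted p = 0.0513) and -0.30 ± 0.13 for *PSMG4* (unadjusted p = 0.0429, edgeR adjusted p = 0.256, DESeq2 adjusted p = 0.225). Neither passed, and with scaling by library size alone the diets overlapped in both genes and in *PSMB4*.

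*PSMG2* had 40.6, 44.7, 46.6 and 59.9 CPM in the SM20 lambs and 46.8, 49.8, 54.3 and 49.4 CPM in the CON lambs. Its diets overlapped through SM20 lamb 4, and the log2 fold change was -0.06 ± 0.14 (edgeR adjusted p = 0.852). *PSMG1* ranged from 33.0 to 45.02 CPM in SM20 and from 30.9 to 33.8 CPM in CON, a log2 fold change of 0.17 ± 0.13. *PSMD9* and *PSMD5*, chaperones of the 19S ATPase ring that the nomenclature lists with the subunits, had log2 fold changes of 0.23 ± 0.18 and 0.26 ± 0.26. *PSMD5* had the widest spread of all tested members in SM20, with 24.7, 36.8, 57.5 and 65.8 CPM in the SM20 lambs and 39.2, 44.7, 36.0 and 34.6 CPM in the CON lambs. The SM20 lambs lay below, among and above the CON lambs, and the coefficient of variation was 40.8% in SM20 and 11.6% in CON. The chaperones counted 3 log2 fold changes above 0 and 3 below, with a median of 0.05 that was -0.08 without SM20 lamb 4.

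Among the 28 tested genes of the core and the 19S particle, CON lamb 4 was the lowest CON lamb for 23 of the 28, against 23.6% of all genes. In the SM20 lambs, lamb 2 was the highest for 14 of the 28, against 18.4% of all genes, and the lowest for 1. The lowest was SM20 lamb 1 for 12 and SM20 lamb 3 for 11, against 26.7% and 23.4% of all genes. The order of the SM20 lambs differed by role. SM20 lamb 2 was the highest for 8 of the 10 non-ATPase genes, 2 of the 6 ATPase genes, 4 of the 6 beta genes and 0 of the 6 alpha genes. These counts describe single animals, since genes of one library are not replicates.

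**Figure D4:**
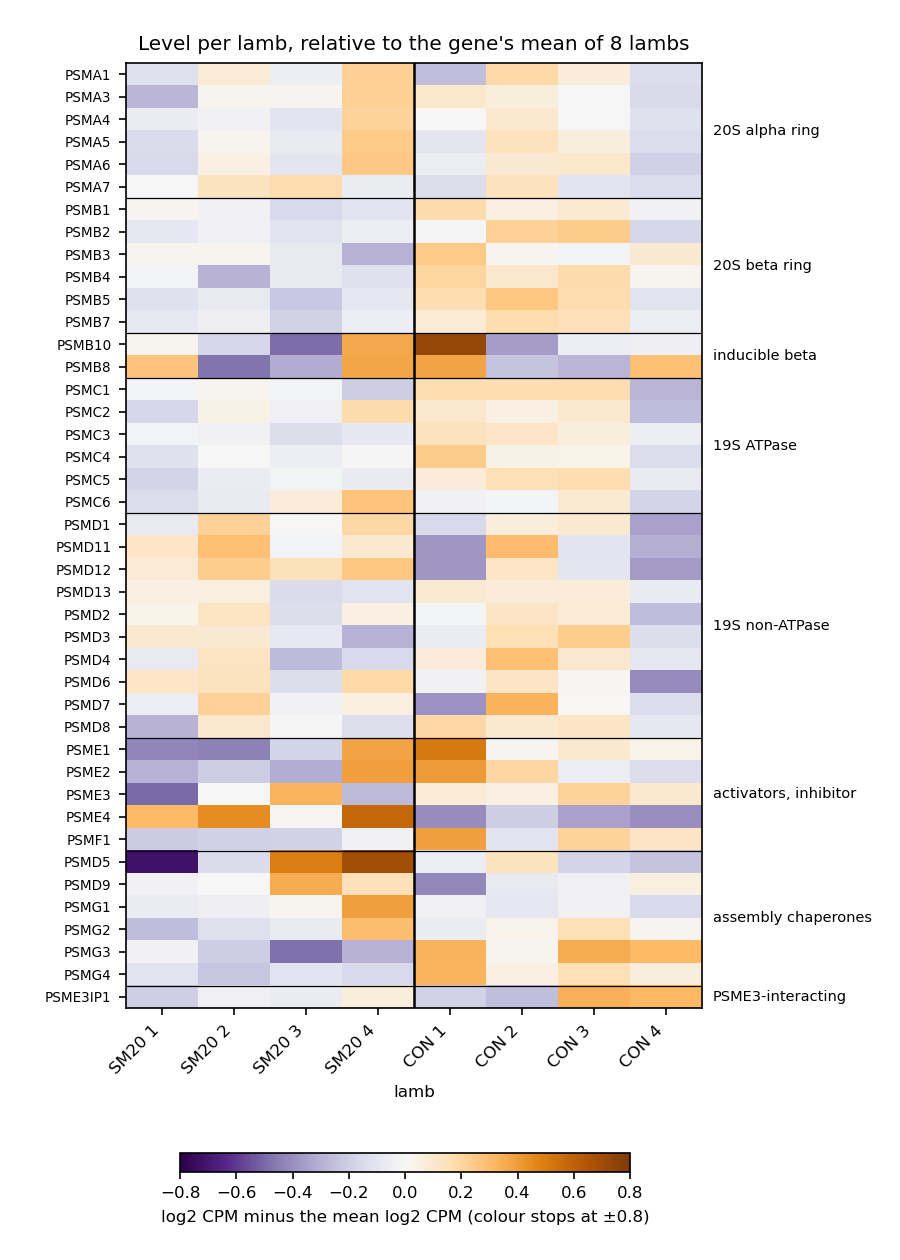
Log2 CPM of each of the 42 tested genes (down the page, by role) in each lamb (across, SM20 left of CON), as the difference from the gene's mean over 8 lambs, with orange above and purple below. The CON lamb 4 column is purple through most of the core and 19S blocks, where it was the lowest CON lamb for 23 of 28 genes, and SM20 lamb 4 and CON lamb 1 share orange in the interferon-inducible genes.

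The 4 interferon-inducible members, *PSMB8*, *PSMB10*, *PSME1* and *PSME2*, followed another order. SM20 lamb 4 was the highest SM20 lamb in 4 of 4 and CON lamb 1 the highest CON lamb in 4 of 4, against 32.1% and 28.1% of all genes. In the RefSeq annotation of ARS-UI_Ramb_v3.0, *PSMB8* lies between *TAP2* and *TAP1*, which encode the transporter that carries peptides to MHC class I, and a single gene, *EMC9*, lies between *PSME2* and *PSME1*. *EMC9* did not share this order, with SM20 lamb 3 the highest SM20 lamb (75.2 CPM) and CON lamb 4 the highest CON lamb (86.1 CPM). Its log2 fold change was -0.45 ± 0.15 (edgeR adjusted p = 0.153), and the diets overlapped. The part of gene position in the shared order was not tested. A list of 8 genes of class I antigen processing and interferon signalling (among them *TAP1*, *TAP2*, *TAPBP* and *B2M*) had CON lamb 1 highest among CON lambs in 8 of 8 and SM20 lamb 4 highest among SM20 lambs in 6 of 8.

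None of these 8 passed edgeR or DESeq2, and 5 had a log2 fold change above 0 and 3 below, with a median of 0.04 that was -0.20 without SM20 lamb 4. *TAP2* ranged from 14.2 to 20.8 CPM in SM20 and from 16.7 to 24.6 CPM in CON, a log2 fold change of -0.17 ± 0.18 (edgeR adjusted p = 0.648). Of 16 leukocyte markers, 13 were counted, none of them at 0 in every lamb, and *CYBB* supplied most of the sum. The leukocyte sums were 99.8 to 121 CPM in SM20 and 72.0 to 103 CPM in CON, where SM20 lamb 4 was the highest of all lambs and CON lamb 1, at 82.3 CPM, was not the highest CON lamb. The part of leukocytes in these values was not tested.

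**Figure D5:**
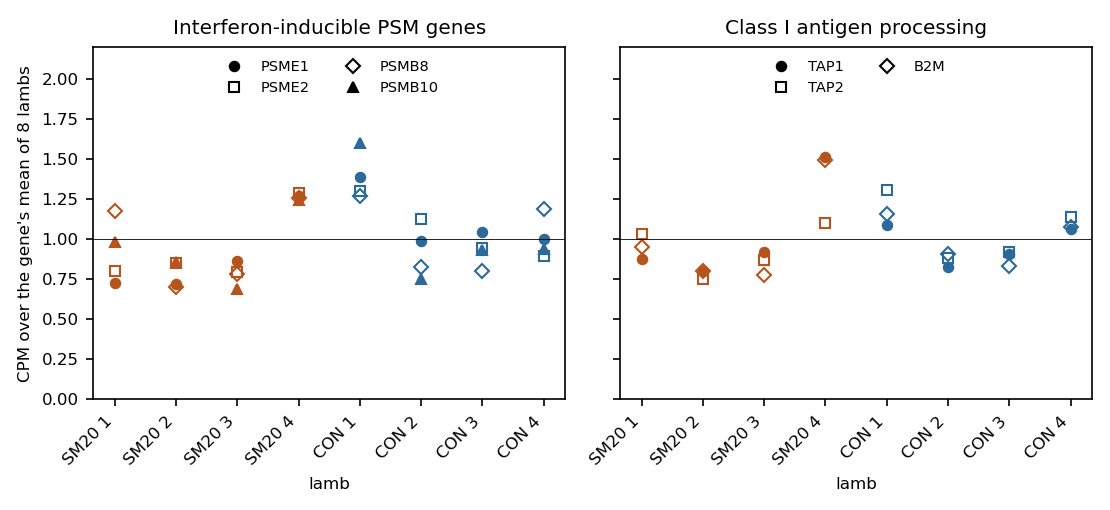
CPM divided by the gene's mean over 8 lambs (vertical axis) for each lamb, SM20 left of CON, with the 4 interferon-inducible proteasome genes on the left and *TAP1*, *TAP2* and *B2M* on the right. SM20 lamb 4 is the highest SM20 lamb and CON lamb 1 the highest CON lamb for every gene shown, for example 60.7 CPM and 66.6 CPM for *PSME1*.

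Genes that work with the proteasome but lie outside the symbol rule were examined in 5 lists, with 50 of 54 genes tested. None of the 50 passed edgeR or DESeq2, and 4 of them, or 8%, had an unadjusted p under 0.05, against 18.3% of all genes. The lambs of the diets did not overlap in 4 of the 50, or 8%, against 12.2% of all genes. Of these, 2 were higher and 2 lower in SM20. The list of 8 above is 1 of the 5. Proteasome partners and maturation factors counted 9 log2 fold changes above 0 and 3 below among 12 tested genes, with a median of 0.17. Without CON lamb 4 there were 7 above and 5 below, with a median of 0.109. Without SM20 lamb 4 there were 8 above and 4 below, and without CON lamb 2 the median was 0.250. *UBE3C*, a ubiquitin ligase that binds the 26S proteasome, had 153, 161, 165 and 155 CPM in the SM20 lambs and 127, 140.3, 147 and 125 CPM in the CON lambs. Its diets did not overlap, and the log2 fold change was 0.23 ± 0.11 (edgeR adjusted p = 0.282). *UBE3A*, another ligase found at the proteasome, ranged from 152 to 217 CPM in SM20 and from 126 to 152 CPM in CON, with a log2 fold change of 0.33 ± 0.14 (edgeR adjusted p = 0.233).

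The transcriptional circuit that raises proteasome genes when proteolysis is short centres on NRF1, encoded by *NFE2L1*. Its list counted 6 log2 fold changes above 0 and 2 below among 8 tested genes, with a median of 0.09, which was -0.06 without SM20 lamb 1. *NFE2L1* had 730.0, 838, 566 and 623 CPM in the SM20 lambs and 565, 684, 627 and 614 CPM in the CON lambs, a log2 fold change of 0.15 ± 0.15 (edgeR adjusted p = 0.630), and the diets overlapped. Leaving out 1 lamb gave values from 0.0375 without SM20 lamb 2 to 0.23 without SM20 lamb 3. *NFE2L2*, its antioxidant-response relative, had a log2 fold change of 0.29 ± 0.26 (edgeR adjusted p = 0.590), from 0.0898 without SM20 lamb 1 to 0.51 without CON lamb 1.

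Factors that deliver substrates to the proteasome counted 9 log2 fold changes above 0 and 8 below among 17 tested genes, with a median of 0.03 that was -0.0068 under upper-quartile factors and ran from -0.0345 without CON lamb 4 to 0.0913 without SM20 lamb 4. *UBQLN2*, a shuttle factor, had 97.2, 81.8, 89.5 and 91.2 CPM in the SM20 lambs and 73.4, 66.8, 80.7 and 58.7 CPM in the CON lambs. The SM20 lambs were all above the CON lambs, with SM20 lamb 2 and CON lamb 3 close to each other, and the log2 fold change was 0.36 ± 0.13 (edgeR adjusted p = 0.176). *RAD23B*, another shuttle factor, ranged from 389 to 464 CPM in SM20 and from 293 to 415 CPM in CON, a log2 fold change of 0.29 ± 0.14 (edgeR adjusted p = 0.282). *UFD1* of the same list, which the rule for named genes did not choose, was lower in SM20 without overlap. It ranged from 58.6 to 61.2 CPM in SM20 and from 65.5 to 73.0 CPM in CON. The log2 fold change of *UFD1* was -0.20 ± 0.11 (edgeR adjusted p = 0.330).

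All 5 tested genes of ubiquitin and its activating enzymes were on average lower in SM20, with a median log2 fold change of -0.20 (4 of 5 with scaling by library size alone, without CON lamb 2 or without SM20 lamb 3). Leaving out 1 lamb, the median was -0.0783 without SM20 lamb 4, -0.129 without SM20 lamb 3, -0.110 without CON lamb 2 and -0.124 without CON lamb 1. *RPS27A*, which encodes ubiquitin fused to a ribosomal protein, ranged from 100.5 to 139 CPM in SM20 and from 112 to 175 CPM in CON, so the diets overlapped. It had a log2 fold change of -0.21 ± 0.18 (edgeR adjusted p = 0.561). Its reads may be shared with near-identical copies, which leaves its values uncertain.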

How the data were processed

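Per the labels' protocols, RNA came from RNeasy Mini columns and libraries from the TruSeq Stranded mRNA kit. The authors deposited whole-number read counts per gene symbol, without normalization. Trim Galore, cutadapt, STAR, featureCounts and DESeq2 were used, per the submitters' processing notes. The sources used here give no versions, genome build, annotation or strand setting, so no coordinates are printed, and reads of overlapping, antisense or near-identical genes may have been shared. The deposited sample sheet gave the labelled diet for 8 of 8 libraries. Names and gene neighbours, and nothing else, were looked up in RefSeq (ARS-UI_Ramb_v3.0), where all 44 member symbols matched.

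The diets were compared in edgeR 4.0.16 (R 4.3.3) by its quasi-likelihood F-test, with TMM factors of 0.885 to 1.10, the default expression filter (minimum count 10), which left out 1468 genes, and Benjamini-Hochberg adjustment over 9779 genes with a threshold of 0.05. P-values are two-sided. The script was tested on simulated data, where it recovered 52% of 2-fold and 90% of 3-fold changes at the threshold. Of its 153 calls there, 11 were of unchanged genes. Changes under 2-fold, as fitted for every tested member, were not simulated. The standard error is the log2 fold change divided by the square root of F. No libraries of a diet agreed within sampling noise (lowest chi-square per degree of freedom 20.0). Replicate numbers follow accession order and pair nothing. Lists are described by counts and medians, without a list test.

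Alternatives were DESeq2 1.42.0, library size alone, upper-quartile and RLE factors, no filter, and leaving out each lamb. Values per lamb were given for members past the threshold, members whose diets did not overlap, and in each role the 2 with the smallest p and the one with the highest mean CPM; in the other lists, for the 2 with the smallest p, of which some are not reported here. The members and lists were chosen with earlier results of these data known.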

Additional observations from a re-analysis of the deposited data

Results flagged for a closer look

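In 8 of 84 groups of 4 lambs (42 genes in 2 diets) 1 lamb's gap to the nearest other lamb, as a share of the group's range, exceeded Dixon's 95% critical value, where chance gives about 1 in 20, or 4.2. SM20 lamb 4 accounts for 3 of the 8 and had 34.5 CPM of *PSME2* (other SM20 lambs 21.3 to 22.9), 57.1 CPM of *PSMF1* (50.4 to 51.4) and 45.02 CPM of *PSMG1* (33.0 to 34.8). CON lamb 4 had 125 CPM of *PSMC1* (other CON lambs 170.9 to 172) and 102 CPM of *PSMD13* (112 to 114). CON lamb 2 had 109.8 CPM of *PSMA7* (90.2 to 92.6) and 17.8 CPM of *PSMG3* (21.8 to 22.5), and CON lamb 1 had 66.6 CPM of *PSME1* (47.3 to 50.1).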

How the results depend on the processing

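Over all genes, the 4 higher and 1 lower calls of edgeR became 259 and 204 with DESeq2. With RLE factors, upper-quartile factors or no filter there were 0 higher calls, with no filter also 0 lower, and without any 1 lamb there were 0 and 0. Members past the threshold stayed at 0 in both directions, except 1 higher with DESeq2 (*PSME4*, whose adjusted p ranged from 0.00129 to 0.202). Members with an unadjusted p under 0.05 numbered 2 higher (1 without SM20 lamb 2 or 4 or CON lamb 1 or 4) and 4 lower (1 with library size alone or without SM20 lamb 2 or 3 or CON lamb 1 or 3, and 2 without SM20 lamb 1). The higher count rose to 3 without CON lamb 2 or without SM20 lamb 1. The lower count was 5 with DESeq2, with upper-quartile factors or without CON lamb 4, and 3 without CON lamb 2.

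The median log2 fold change of all genes moved to 0.0549 under scaling by library size alone and to -0.0297 under upper-quartile factors. That of the chaperones ranged from -0.0777 to 0.110 and that of the class I list from -0.20 to 0.12 without any 1 lamb. The alpha ring's was -0.01 with upper-quartile factors, and the 19S particle's 0.01 with library size alone. The beta ring's stayed between -0.23 and -0.12.

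Of 364 values of the 28 named genes, 342 kept direction and side of the threshold and 21, of 7 genes, changed sign. The ranges without any 1 lamb were -0.0027 to 0.13 for *PSMA1*, -0.0615 to 0.0797 for *PSMA6*, -0.20 to 0.0741 for *PSMB8*, -0.32 to 0.11 for *PSMB10*, -0.0812 to 0.0579 for *PSMC2*, -0.0485 to 0.0791 for *PSMD2* and -0.19 to 0.0086 for *PSMG2*. With upper-quartile factors *PSMA6* was at -0.0090, *PSMC2* at -0.0306 and *PSMD2* at -0.0027, with DESeq2 and RLE factors *PSMC2* was at -0.0042, and with library size alone *PSMB8* was at 0.0070. The cause was not tested. No paired analysis was possible because the labels give nothing, such as a shared pen, litter or slaughter day, that pairs lambs across diets.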
